A study of Mus musculus with 6 samples.

Results

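Genes for the enzymes and transporters of glycolysis and the pentose phosphate pathway were followed in RNA sequencing libraries of sorted B cells from mouse colons. The set was taken by gene symbol: 35 genes for glycolytic enzymes, the Pfkfb regulators and Tigar, glucose and lactate transporters, pentose phosphate enzymes and phosphoglucomutases, all of them present among the 20591 genes of the table. One group had 3 libraries from mice that received lenvatinib, an inhibitor of receptor tyrosine kinases such as those for VEGF and FGF, and its control group had 3 libraries from mice that received DMSO, the solvent. The series title speaks of colitis, but whether these mice had it, their strain and age, and the dose of lenvatinib are not stated in the labels. The libraries are numbered as biological replicates with no word on separate animals, so a p-value here reflects only how far the libraries of a group spread, and that spread could be technical.

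Glycolysis turns glucose into pyruvate in the cytosol, lactate dehydrogenase can reduce pyruvate to lactate, and monocarboxylate transporters carry lactate out of the cell. The pentose phosphate pathway leaves glycolysis at glucose 6-phosphate: its oxidative branch yields NADPH, and its non-oxidative branch interconverts sugar phosphates and supplies ribose for nucleotides. Resting B cells use little glucose and activated B cells more, and hypoxia-inducible factors and Myc are textbook inducers of many of these genes.

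The lower part of the glycolytic chain and the lactate transporter Slc16a1 were higher in lenvatinib libraries, and the glucose transporter Slc2a1 was lower. Neither the regulators of phosphofructokinase nor the non-oxidative pentose phosphate branch had a called gene. Levels are scaled FPKM, fragments per kilobase of gene relative to the counted reads of its library, after division by a library factor of 0.993 to 1.011. A gene was tested where at least 3 libraries reached a scaled FPKM of 1, with limma on log2(scaled FPKM + 1), and called where its Benjamini-Hochberg adjusted p over 9936 tested genes was under 0.05. Log2 changes are on this scale, which understates the change of low genes, and means carry the SD of n = 3 libraries. Of the 35 members 31 were tested, of which 14 were called higher and 1 lower. Over all tested genes 10.5 percent were called higher, 8.22 percent lower and 18.7 percent in either direction. The median log2 change was 0.17 over the tested members and 0.01 over all tested genes. For 7 members the call came with a log2 change of at least 0.5, all upward, as for 2.98 percent of all tested genes. The lactate transporter Slc16a3, counted among these 7 and among the 14 called higher, was under 1 in all DMSO libraries. It was tested only through its lenvatinib libraries, so its call is not support for a direction. The groups did not overlap for 21 members, 19 higher and 2 lower, where 37.1 percent of all tested genes were separated, 18.9 percent upward and 18.2 percent downward. Summed over the 35 members, the level was 1048 ± 8.46 scaled FPKM in lenvatinib libraries and 834 ± 5.09 scaled FPKM in DMSO libraries.

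**Figure D1:**
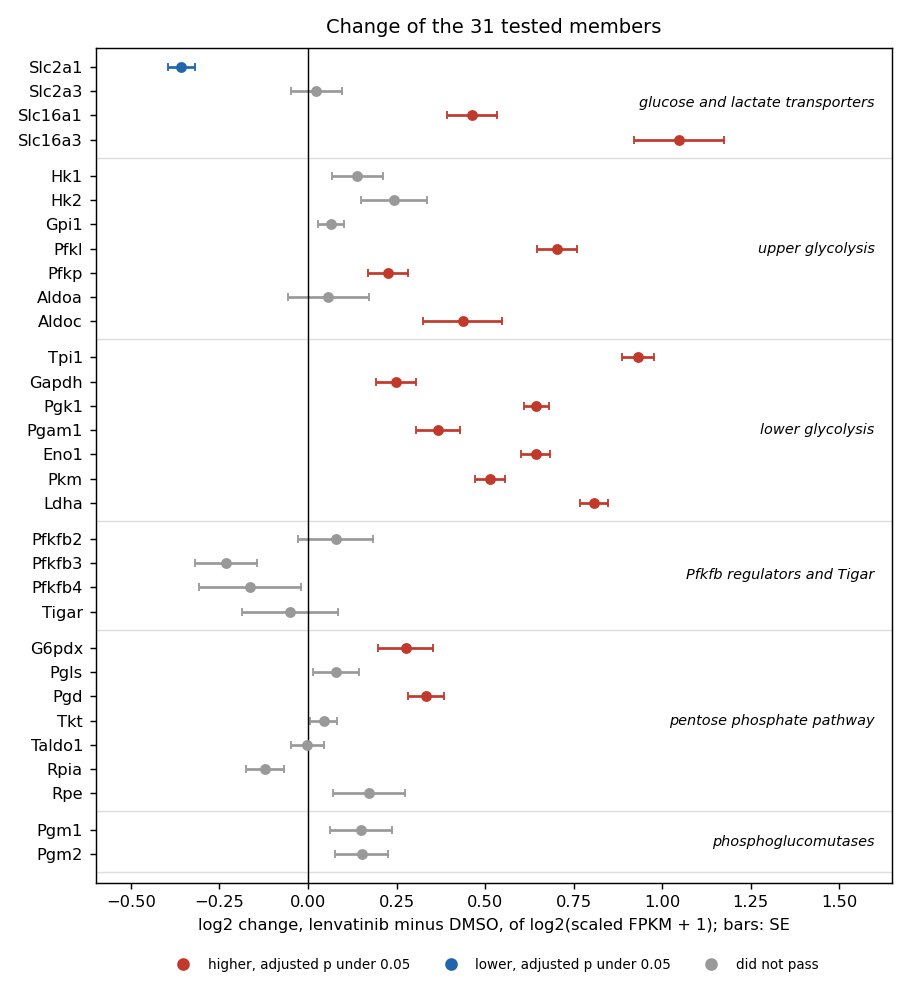
Log2 change, lenvatinib minus DMSO, of the 31 tested members from limma on log2(scaled FPKM + 1), with SE as bars and genes grouped by role from top to bottom. The 7 tested genes of lower glycolysis lie right of zero and were called higher, between 0.25 for Gapdh and 0.93 for Tpi1, while Slc2a1 is the called gene left of zero, at −0.36.

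The libraries held 26635279 to 31655500 counted reads each. B cell markers such as Cd79a and Ms4a1 were abundant in all of them: the summed level of 14 such genes was 2544 to 2579 scaled FPKM in lenvatinib libraries against 3028 to 3067 in DMSO libraries, and 0 of 14 tested were called higher and 12 lower. Genes of other cells also differed between the groups. The sum of T cell markers was 154 to 156 scaled FPKM in lenvatinib libraries against 50.7 to 53.9 in DMSO libraries, and 8 of 11 tested were called higher and 0 lower. Without Lck, the most abundant of these genes in DMSO libraries, the sum was 117 to 119 in lenvatinib libraries against 27.1 to 28.5 in DMSO libraries. Markers of natural killer and innate lymphoid cells summed to 169 to 172 scaled FPKM in lenvatinib libraries against 31.3 to 38.4 in DMSO libraries, and 8 of 8 tested were called higher and 0 lower, including Klrb1c, which was under 1 in all DMSO libraries and so tested only through its lenvatinib libraries. Colon epithelium markers summed to 68.5 to 74.4 scaled FPKM in lenvatinib libraries against 14.7 to 15.9 in DMSO libraries, and 9 of 9 tested were called higher and 0 lower. Of these 9 epithelial genes 5, Krt8, Krt19, Cdh1, Zg16 and Guca2a, were tested only through their lenvatinib libraries, so the count is not support for a direction. Macrophage and dendritic cell markers summed to 215 to 223 scaled FPKM in lenvatinib libraries against 187 to 199 in DMSO libraries, with 2 of 9 tested called higher and 0 lower. Most of that sum was Apoe, which was called higher. Without Apoe it was 57.8 to 64.5 in lenvatinib libraries against 51.6 to 52.7 in DMSO libraries. Neutrophil markers summed to 11.7 to 17.0 scaled FPKM in lenvatinib libraries against 6.37 to 7.47 in DMSO libraries, with 2 of 3 tested called higher and 0 lower. These were S100a9 and Retnlg, with limma adjusted p up to 0.0711 and 0.0654 under the alternatives. Erythroid markers summed to 9.64 to 15.0 scaled FPKM in lenvatinib libraries against 4.16 to 6.24 in DMSO libraries, with 1 of 3 tested called higher and 0 lower. Endothelial and fibroblast markers summed to 36.6 to 37.7 scaled FPKM in lenvatinib libraries against 45.0 to 45.2 in DMSO libraries, most of it Pecam1, which was called lower (32.8 ± 0.160 in lenvatinib libraries against 42.3 ± 0.566 in DMSO libraries, limma adjusted p = 0.000328). Without Pecam1 the sum was 3.63 to 4.86 in lenvatinib libraries against 2.48 to 3.37 in DMSO libraries, and Acta2 was called higher (1.87 ± 0.634 in lenvatinib libraries against 0.747 ± 0.119 in DMSO libraries, limma adjusted p = 0.0187, up to 0.061 under the alternatives), tested only through its lenvatinib libraries. The endothelial genes Cdh5, Kdr, Vwf and Madcam1 were too low to be tested, and their groups overlapped. Cdh5, the highest of them, averaged 0.406 ± 0.273 in lenvatinib libraries and 0.318 ± 0.185 in DMSO libraries. The fall of Pecam1 was thus not shared by these genes. Plasma cell markers summed to 224 to 234 scaled FPKM in lenvatinib libraries against 237 to 242 in DMSO libraries, with Irf4 called lower (104 ± 0.536 in lenvatinib libraries against 136 ± 1.79 in DMSO libraries, limma adjusted p = 2.49e-05) and Jchain higher (62.8 ± 4.35 in lenvatinib libraries against 45.8 ± 2.49 in DMSO libraries, limma adjusted p = 0.000826). Without Irf4, which activated B cells also express, the plasma cell sum was 119 to 129.9 in lenvatinib libraries against 101 to 107 in DMSO libraries. Of 10 proliferation genes 1 was called, Pcna, which was higher, and their sum was 301 to 308 scaled FPKM in lenvatinib libraries against 254.5 to 254.9 in DMSO libraries. Without Pcna it was 106 to 114 in lenvatinib libraries against 102 to 105 in DMSO libraries. No marker of these lists was at 0 in every library. The part of these cells in the results on members was not tested, and in bulk libraries such as these a change in the number of cells of a type and a change in RNA per cell cannot be told apart.

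The promoters of Ldha and Tpi1, the members with the smallest p among those that rose, and of Slc2a1, the called member that fell, show what the start of these genes looks like. The sequences are from RefSeq on build GRCm38.p6, 250 bases before to 50 after the annotated start, and 34 of the 35 members matched by symbol. The first listed window was used where a gene had several. Capitals mark ACGTG, a form of the core of the hypoxia response element, on both strands, so that its reverse complement CACGT is marked too. Other forms of that core, such as GCGTG, were neither marked nor counted. The E-box CACGTG, a motif that Myc binds, contains both ACGTG and CACGT. The windows lie at chr7:46845554-46845853 on the plus strand for Ldha, chr6:124814109-124814408 on the minus strand for Tpi1 and chr4:119108495-119108794 on the plus strand for Slc2a1.
Ldha: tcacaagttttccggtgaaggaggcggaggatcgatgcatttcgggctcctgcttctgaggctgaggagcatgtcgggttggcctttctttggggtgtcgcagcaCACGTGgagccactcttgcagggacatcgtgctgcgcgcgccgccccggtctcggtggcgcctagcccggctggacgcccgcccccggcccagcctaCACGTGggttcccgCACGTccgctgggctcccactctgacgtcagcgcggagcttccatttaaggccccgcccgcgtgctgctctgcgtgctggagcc
Tpi1: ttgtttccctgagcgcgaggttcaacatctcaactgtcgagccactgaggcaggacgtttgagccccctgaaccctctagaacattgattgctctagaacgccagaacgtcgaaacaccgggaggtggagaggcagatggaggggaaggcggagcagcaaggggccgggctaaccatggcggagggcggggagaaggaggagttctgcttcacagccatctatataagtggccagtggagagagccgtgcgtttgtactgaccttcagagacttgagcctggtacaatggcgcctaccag
Slc2a1: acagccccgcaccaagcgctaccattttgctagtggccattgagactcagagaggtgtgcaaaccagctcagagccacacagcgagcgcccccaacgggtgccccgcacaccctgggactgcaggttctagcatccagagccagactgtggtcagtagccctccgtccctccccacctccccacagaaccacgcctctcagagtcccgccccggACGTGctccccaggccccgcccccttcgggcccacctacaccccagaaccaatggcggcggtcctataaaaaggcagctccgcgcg
The Ldha window held 3 separate ACGTG sites, whose first bases lie 145, 48 and 34 bases before the start, and 2 of them were E-boxes. The Tpi1 window held 0 sites, and the Slc2a1 window 1, with its first base 36 bases before the start. ACGTG was in the windows of 16 of 34 members, 47.1 percent, against 19.7 percent of all 27025 genes with a window. It was in 8 of 14 members called higher, in the 1 called lower and in 5 of 15 tested members that were not called. CACGTG was in 4 of 34 members, 11.8 percent, against 7.24 percent of all windows. It was in 2 of 14 members called higher, not in the 1 called lower, and in 1 of 15 tested members that were not called. GGGCGG, the GC box, on either strand, was in 26 of 34, 76.5 percent, against 35.9 percent. It was in 12 of 14 members called higher, in the 1 called lower and in 13 of 15 tested members that were not called. The shares over all windows include genes that were not tested. Such matches describe letters in a window and not binding.

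Of the glucose transporters Slc2a1 was called lower and Slc2a3 was not called, and both lactate transporters were called higher. Slc2a1, the glucose transporter GLUT1, stood at 47.5, 48.3 and 45.8 scaled FPKM in lenvatinib libraries, against 59.7, 61.9 and 60.6 in DMSO libraries. Every lenvatinib library was below every DMSO library (log2 change −0.36, SE 0.04, limma adjusted p = 0.000274). Slc2a3, the glucose transporter GLUT3, averaged 9.20 ± 0.663 in lenvatinib libraries and 9.03 ± 0.265 in DMSO libraries, with overlapping groups (log2 change 0.02, SE 0.07, limma adjusted p = 0.859). Slc2a1 made up 83.7 ± 1.31 percent in lenvatinib libraries and 87.1 ± 0.495 percent in DMSO libraries of the summed level of both, and these shares did not overlap.

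Slc16a1, the monocarboxylate transporter MCT1, averaged 13.2 ± 0.992 scaled FPKM in lenvatinib libraries and 9.29 ± 0.332 scaled FPKM in DMSO libraries (log2 change 0.46, SE 0.07, limma adjusted p = 0.00196). Slc16a3, the lactate exporter MCT4 of highly glycolytic cells, stood at 2.26, 2.30 and 2.57 scaled FPKM in lenvatinib libraries, against 0.545, 0.848 and 0.525 in DMSO libraries. Behind these low values were 265, 246 and 262 reads in lenvatinib libraries and 53, 97 and 58 in DMSO libraries. Slc16a3 had the largest log2 change of the tested members (log2 change 1.05, SE 0.13, limma adjusted p = 0.000501), and its mean was 3.72 times as high in lenvatinib libraries. Because its DMSO libraries were all under 1, it was tested only through its lenvatinib libraries, so that being tested already required higher values there. Slc16a3 made up 15.3 ± 1.52 percent in lenvatinib libraries and 6.40 ± 1.48 percent in DMSO libraries of the summed lactate transporter level, without overlap.

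**Figure D2:**
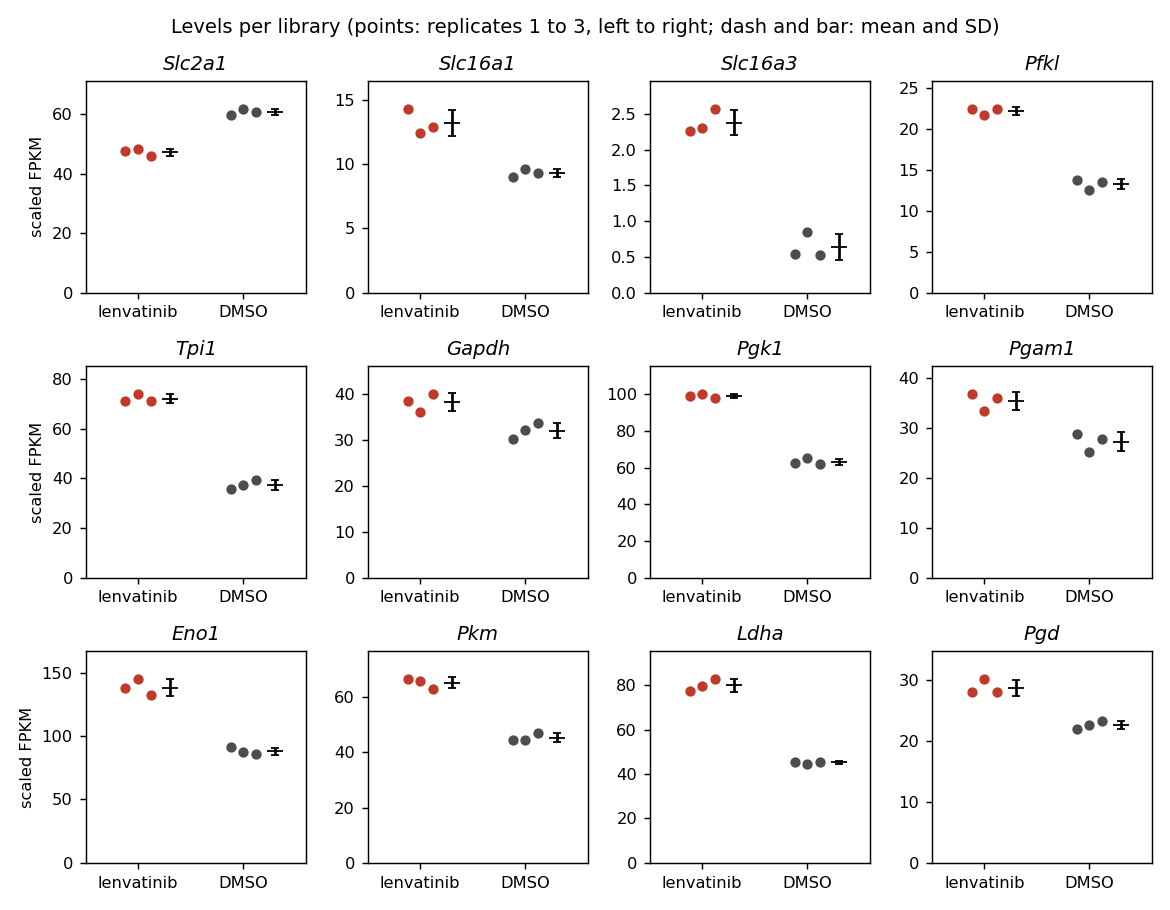
Scaled FPKM of 12 called members in each library, lenvatinib left and DMSO right in every panel, with points for replicates 1 to 3 and the mean and SD beside them; each axis starts at 0. The groups do not overlap in any panel: Slc2a1 is lower in lenvatinib libraries, between 45.8 and 48.3, and the other genes are higher in them.

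In upper glycolysis, from the trapping of glucose to the cleavage of fructose bisphosphate, 3 of 7 tested genes were called higher and 0 lower. The hexokinases, which phosphorylate glucose, did not pass. Hk1 averaged 7.37 ± 0.316 scaled FPKM in lenvatinib libraries and 6.60 ± 0.222 scaled FPKM in DMSO libraries (log2 change 0.14, SE 0.07, limma adjusted p = 0.221). Hk2, the inducible form, averaged 4.24 ± 0.258 in lenvatinib libraries and 3.43 ± 0.313 in DMSO libraries (log2 change 0.24, SE 0.09, limma adjusted p = 0.107), and passed in limma-voom on recovered reads (adjusted p = 0.0483). For both, every lenvatinib library was above every DMSO library. Hk3, known from myeloid cells, was too low to be tested, with 21 to 39 reads in lenvatinib libraries and 19 to 33 in DMSO libraries. Hk1 made up 62.1 ± 1.92 percent in lenvatinib libraries and 64.2 ± 2.46 percent in DMSO libraries of the hexokinase level, with overlapping shares. Gpi1, glucose phosphate isomerase, an abundant member, averaged 104 ± 1.79 in lenvatinib libraries and 99.3 ± 3.52 in DMSO libraries, with separate groups and no call (log2 change 0.07, SE 0.04, limma adjusted p = 0.248).

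Phosphofructokinase, the committed step of glycolysis, shifted in its make-up. Pfkl, the liver-type subunit, stood at 22.4, 21.6 and 22.4 scaled FPKM in lenvatinib libraries, against 13.7, 12.5 and 13.4 in DMSO libraries. Its groups were far apart (log2 change 0.70, SE 0.06, limma adjusted p = 4.06e-05). Pfkp, the platelet-type subunit, averaged 23.0 ± 1.20 in lenvatinib libraries and 19.5 ± 0.455 in DMSO libraries (log2 change 0.23, SE 0.06, limma adjusted p = 0.0212). The call of Pfkp was lost when leaving out lenvatinib replicate 1 (0.0739), DMSO replicate 1 (0.0604) or DMSO replicate 3 (0.0689), all limma adjusted p, and with no filter on low values (0.0534). Pfkm, the muscle-type subunit, was too low to be tested, at 0.626 ± 0.140 in lenvatinib libraries and 0.573 ± 0.160 in DMSO libraries. Pfkl made up 47.3, 49.2 and 48.9 percent in lenvatinib libraries, against 40.8, 37.9 and 40.4 percent in DMSO libraries of the summed phosphofructokinase level. Pfkp made up 50.2 ± 0.916 percent in lenvatinib libraries and 58.6 ± 1.70 percent in DMSO libraries, and the shares of neither gene overlapped between groups.

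Aldolases cleave fructose bisphosphate, and both genes were listed at low levels. Aldoc, the brain-type form, averaged 3.65 ± 0.442 scaled FPKM in lenvatinib libraries and 2.43 ± 0.277 scaled FPKM in DMSO libraries (log2 change 0.44, SE 0.11, limma adjusted p = 0.0248). Its call was lost when leaving out lenvatinib replicate 1 (0.0858), lenvatinib replicate 3 (0.0731), DMSO replicate 2 (0.0726) or DMSO replicate 3 (0.0791), all limma adjusted p, and with no filter on low values (0.065). Aldoa, the form of muscle and most other cells, averaged 2.02 ± 0.220 in lenvatinib libraries and 1.91 ± 0.223 in DMSO libraries, with overlapping groups (log2 change 0.06, SE 0.11, limma adjusted p = 0.777). Aldoa thus stood at percentile 12.7 of the levels of tested genes, against percentile 89.4 for Tpi1, the next enzyme of the chain. Gene copies of similar sequence can share reads with Aldoa. Of such copies, Aldoart1 averaged 0.0109 ± 0.00955 in lenvatinib libraries and 0.0054 ± 0.00936 in DMSO libraries. How shared reads were counted is not given in the sources used here, so the level of Aldoa is uncertain.

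**Figure D3:**
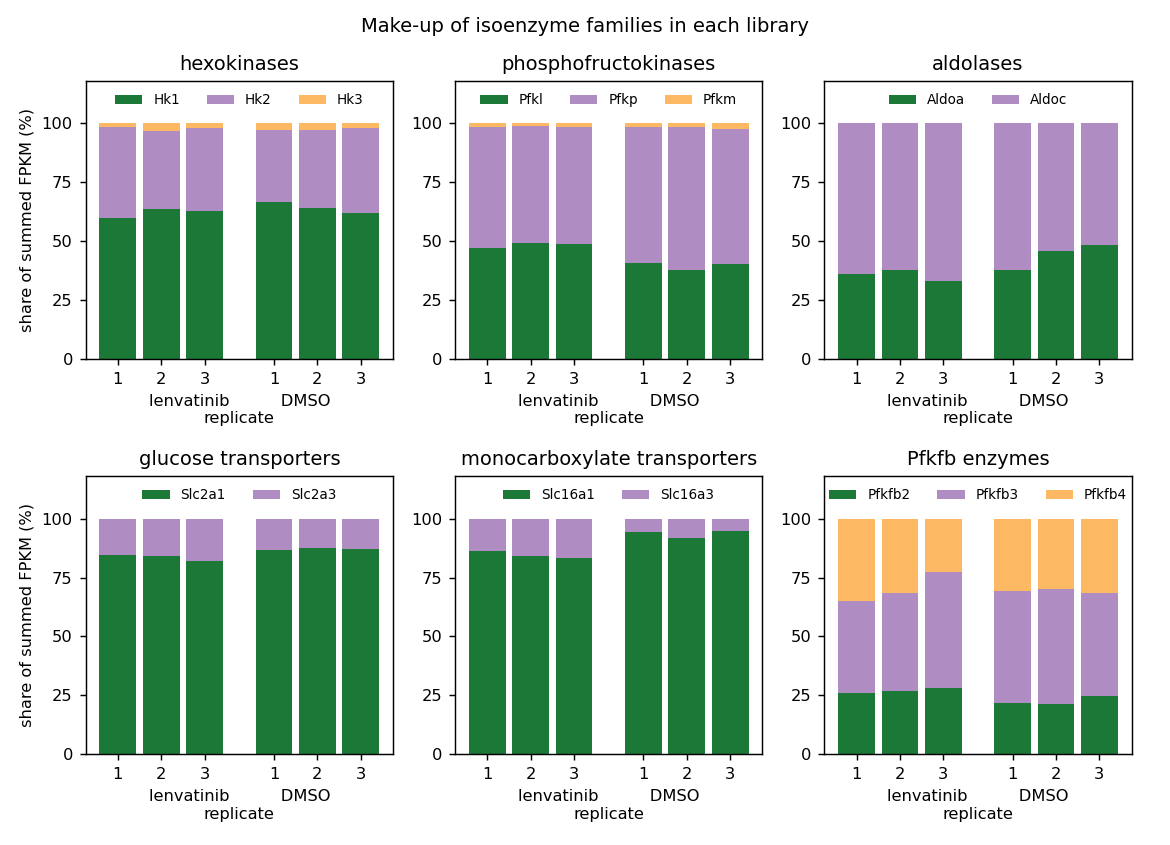
Share of each isoenzyme in the summed FPKM of its family, in percent, as stacked bars for 3 lenvatinib libraries (left) and 3 DMSO libraries (right). Pfkl takes 47.3 to 49.2 percent of phosphofructokinase in lenvatinib libraries against 37.9 to 40.8 percent in DMSO libraries, and hexokinase shares overlap.

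Lower glycolysis, from triose phosphate to lactate, had all 7 tested genes called higher. The summed scaled FPKM of its 9 genes was 528, 535 and 524 in lenvatinib libraries, against 339, 336 and 342 in DMSO libraries, 1.56 times as high by the means. For upper glycolysis the sum was 167 ± 3.55 in lenvatinib libraries and 147 ± 3.48 in DMSO libraries, a ratio of 1.14. Most of the upper sum was Gpi1, which was not called. Without Gpi1 the upper sum was 61.0 to 65.3 in lenvatinib libraries against 47.7 to 48.1 in DMSO libraries. Tpi1, triose phosphate isomerase, which brings both products of aldolase into the lower chain, stood at 71.0, 74.0 and 71.3 scaled FPKM in lenvatinib libraries, against 35.5, 37.2 and 39.2 in DMSO libraries. A wide gap lay between its groups (log2 change 0.93, SE 0.05, limma adjusted p = 3.33e-06). Pgk1, phosphoglycerate kinase, which makes the first ATP of the chain, stood at 99.1, 100.1 and 97.8 in lenvatinib libraries, against 62.2, 65.0 and 61.8 in DMSO libraries. These groups did not overlap (log2 change 0.64, SE 0.03, limma adjusted p = 6.62e-06).

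Eno1, the enolase of most cells and the most abundant member in lenvatinib libraries, stood at 138, 145 and 132 scaled FPKM in lenvatinib libraries, against 91.3, 87.1 and 86.0 in DMSO libraries. All lenvatinib libraries were far above the DMSO libraries (log2 change 0.64, SE 0.04, limma adjusted p = 1.34e-05). Eno1b, a retroposed copy of Eno1 that can share its reads, averaged 3.73 ± 0.102 in lenvatinib libraries and 1.61 ± 0.592 in DMSO libraries. Pkm, the pyruvate kinase of cells other than liver and red cells, stood at 66.5, 66.0 and 62.9 in lenvatinib libraries, against 44.4, 44.5 and 47.1 in DMSO libraries. Its groups did not overlap (log2 change 0.51, SE 0.04, limma adjusted p = 5.13e-05), and FPKM per gene cannot tell its splice forms apart. In GENCODE vM21, which is not the authors' annotation, 15.3 percent of the exon bases of Pkm also belong to another gene model on the same strand. Ldha, the lactate dehydrogenase subunit that favours lactate, stood at 77.1, 79.7 and 82.8 in lenvatinib libraries, against 45.6, 44.5 and 45.4 in DMSO libraries. Its groups were far apart (log2 change 0.81, SE 0.04, limma adjusted p = 3.33e-06). Ldhb, its partner subunit, was too low to be tested, with 59, 25 and 34 reads in lenvatinib libraries and 35, 10 and 22 in DMSO libraries, and Ldha made up 98.8 ± 0.505 percent in lenvatinib libraries and 98.7 ± 0.818 percent in DMSO libraries of the sum of both.

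Pgam1 and Gapdh had the smallest changes of lower glycolysis. Pgam1, phosphoglycerate mutase, averaged 35.5 ± 1.76 scaled FPKM in lenvatinib libraries and 27.3 ± 1.86 scaled FPKM in DMSO libraries (log2 change 0.37, SE 0.06, limma adjusted p = 0.00322). Gapdh, the glyceraldehyde phosphate dehydrogenase often used as a control gene, averaged 38.3 ± 1.98 in lenvatinib libraries and 32.1 ± 1.68 in DMSO libraries (log2 change 0.25, SE 0.06, limma adjusted p = 0.0146). The call of Gapdh was lost when leaving out DMSO replicate 1 (0.0517), and with no filter on low values (0.0514), both limma adjusted p. Gapdh has many processed pseudogenes in the mouse genome, so its level too depends on how shared reads were counted. Eno2, the neuronal enolase, was too low to be tested, with 0, 20 and 42 reads in lenvatinib libraries and 15, 12 and 18 in DMSO libraries.

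The Pfkfb enzymes, which make and break down fructose 2,6-bisphosphate, the activator of phosphofructokinase, and Tigar, which breaks it down, had 0 called genes of 4 tested. Pfkfb3, the form with strong kinase activity, stood at 4.59, 4.65 and 5.46 scaled FPKM in lenvatinib libraries, against 6.20, 5.67 and 5.88 in DMSO libraries. Every lenvatinib library was below every DMSO library, but the gene did not pass (log2 change −0.23, SE 0.09, limma adjusted p = 0.102) except in limma-voom on recovered reads (adjusted p = 0.0266). Pfkfb4 stood at 4.14, 3.56 and 2.49 in lenvatinib libraries, against 3.98, 3.45 and 4.20 in DMSO libraries, with overlapping groups (log2 change −0.16, SE 0.14, limma adjusted p = 0.48). Pfkfb2 averaged 3.08 ± 0.0367 in lenvatinib libraries and 2.88 ± 0.412 in DMSO libraries (limma adjusted p = 0.658). Its share of the Pfkfb level was 27.1 ± 0.972 percent in lenvatinib libraries and 22.7 ± 1.81 percent in DMSO libraries, without overlap. Tigar averaged 2.26 ± 0.532 in lenvatinib libraries and 2.35 ± 0.239 in DMSO libraries (limma adjusted p = 0.836).

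In the oxidative branch of the pentose phosphate pathway, the dehydrogenases that yield NADPH were called higher. Pgd, 6-phosphogluconate dehydrogenase, averaged 28.7 ± 1.28 scaled FPKM in lenvatinib libraries and 22.6 ± 0.638 scaled FPKM in DMSO libraries (log2 change 0.33, SE 0.05, limma adjusted p = 0.00213). G6pdx, glucose 6-phosphate dehydrogenase, the entry enzyme, averaged 12.9 ± 0.974 in lenvatinib libraries and 10.5 ± 0.753 in DMSO libraries (log2 change 0.28, SE 0.08, limma adjusted p = 0.0376). The call of G6pdx was lost in 9 of 16 alternative analyses, among them leaving out lenvatinib replicate 1 (0.121), lenvatinib replicate 3 (0.0912), DMSO replicate 1 (0.115), DMSO replicate 2 (0.0533) or DMSO replicate 3 (0.0699), all limma adjusted p. In GENCODE vM21 13.6 percent of its exon bases also lie in Ikbkg on the other strand, and the use of strand in counting is not given in the sources used here. Pgls, the lactonase between these enzymes, averaged 42.1 ± 3.29 in lenvatinib libraries and 39.8 ± 2.28 in DMSO libraries (limma adjusted p = 0.451), and 20.6 percent of its exon bases are shared with Fam129c. The summed level of the branch was 83.8 ± 2.88 in lenvatinib libraries and 72.9 ± 1.19 in DMSO libraries.

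The non-oxidative branch had 0 called genes of 4, overlapping groups for each, and a summed level of 169 ± 5.05 in lenvatinib libraries and 169 ± 4.25 in DMSO libraries. Tkt, transketolase, averaged 56.6 ± 1.40 scaled FPKM in lenvatinib libraries and 54.9 ± 1.17 scaled FPKM in DMSO libraries (log2 change 0.04, SE 0.04, limma adjusted p = 0.485). Taldo1, transaldolase, averaged 70.4 ± 3.08 in lenvatinib libraries and 70.5 ± 3.02 in DMSO libraries (log2 change −0.0017, SE 0.05, limma adjusted p = 0.985). Rpia, ribose phosphate isomerase, averaged 30.3 ± 1.12 in lenvatinib libraries and 33.1 ± 1.85 in DMSO libraries (log2 change −0.12, SE 0.05, limma adjusted p = 0.161). Rpe, the epimerase of this branch, averaged 11.6 ± 0.626 in lenvatinib libraries and 10.3 ± 1.62 in DMSO libraries (log2 change 0.17, SE 0.10, limma adjusted p = 0.284). The phosphoglucomutase genes Pgm1 and Pgm2 had separate groups and no call. Pgm1 averaged 4.19 ± 0.253 in lenvatinib libraries and 3.68 ± 0.200 in DMSO libraries (limma adjusted p = 0.28). Pgm2 averaged 8.66 ± 0.300 in lenvatinib libraries and 7.71 ± 0.554 in DMSO libraries (limma adjusted p = 0.2).

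**Figure D4:**
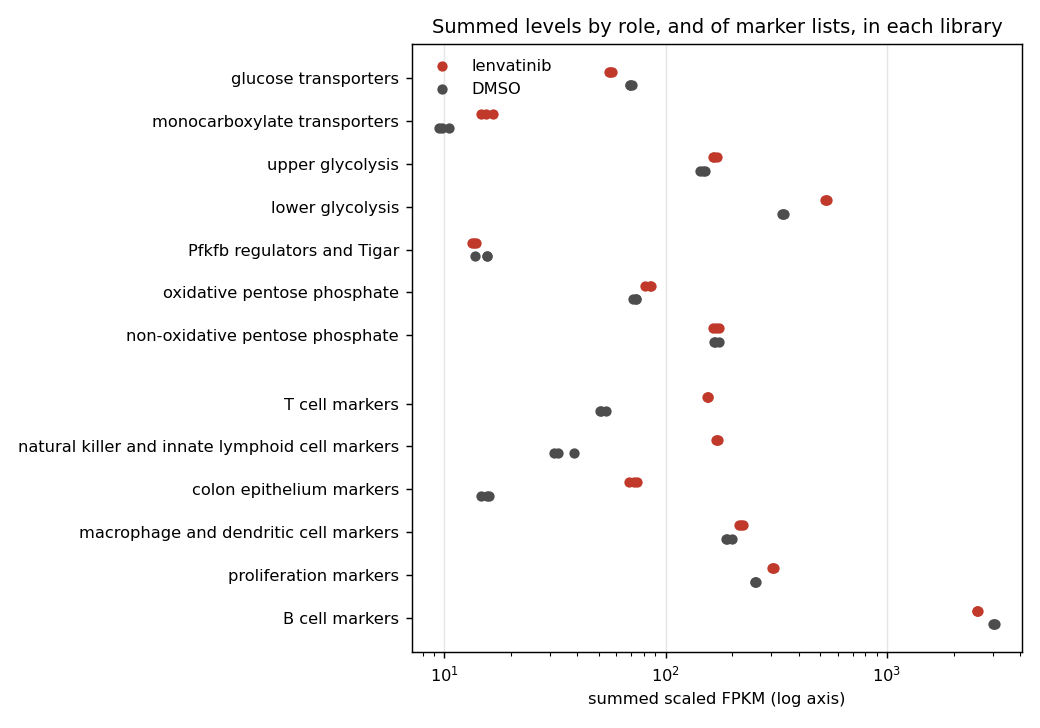
Summed scaled FPKM per library on a log axis, lenvatinib above DMSO in each row, for the members by role and for marker lists. Lower glycolysis is at 524 to 535 in lenvatinib libraries against 336 to 342 in DMSO libraries, the non-oxidative branch overlaps, and T cell, natural killer and epithelial markers are higher in lenvatinib libraries.

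Among 97 further genes of neighbouring steps, 66 were tested, of which 10 were called higher and 3 lower, with a median log2 change of 0.06. These 13 calls of 66 are a share near the 18.7 percent called in either direction over all tested genes (10.5 percent of them called higher and 8.22 percent called lower). In hexose and monocarboxylate transport 2 of 8 were called higher and 3 lower. Emb, embigin, a partner protein of monocarboxylate transporters, stood at 54.5, 51.8 and 52.6 scaled FPKM in lenvatinib libraries, against 15.1, 12.9 and 15.4 in DMSO libraries. Its log2 change was the largest upward one of these lists (log2 change 1.81, SE 0.07, limma adjusted p = 1.01e-06). Bsg, basigin, the main partner of MCT1 and MCT4, averaged 54.4 ± 3.55 in lenvatinib libraries and 45.6 ± 2.32 in DMSO libraries (log2 change 0.25, SE 0.06, limma adjusted p = 0.0164). The call of Bsg was lost in 5 of 16 alternative analyses. Among them were leaving out lenvatinib replicate 2 (0.0615), lenvatinib replicate 3 (0.0543) or DMSO replicate 3 (0.057), all limma adjusted p. Slc16a6, a carrier of the monocarboxylate family, stood at 18.1, 19.2 and 19.2 in lenvatinib libraries, against 33.0, 32.9 and 33.2 in DMSO libraries, with every lenvatinib library lower (log2 change −0.78, SE 0.05, limma adjusted p = 1.02e-05). Txnip, which restrains glucose uptake, averaged 438 ± 1.52 in lenvatinib libraries and 513 ± 9.30 in DMSO libraries (log2 change −0.23, SE 0.02, limma adjusted p = 0.000264). Slc2a8, a glucose transporter named after its value was seen, averaged 2.10 ± 0.269 in lenvatinib libraries and 3.01 ± 0.286 in DMSO libraries (limma adjusted p = 0.0454). Its call was lost in 10 of 15 alternative analyses, among them leaving out any 1 of the libraries.

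Where pyruvate enters mitochondria, 1 of 12 tested genes was called. This count and those of the lists below stand beside 10.5 percent called higher and 18.7 percent in either direction over all tested genes. Pdk1, a kinase that inactivates pyruvate dehydrogenase, averaged 7.85 ± 0.228 scaled FPKM in lenvatinib libraries and 5.87 ± 0.464 scaled FPKM in DMSO libraries (log2 change 0.37, SE 0.08, limma adjusted p = 0.0113). The pyruvate carrier genes Mpc1 and Mpc2 did not pass, with log2 changes of 0.04 and 0.10. In the serine branch, which starts from 3-phosphoglycerate, 2 of 5 tested genes were called higher. Phgdh, its entry enzyme, averaged 32.9 ± 1.31 in lenvatinib libraries and 25.6 ± 0.764 in DMSO libraries (limma adjusted p = 0.00135). Shmt2, the mitochondrial serine hydroxymethyltransferase, averaged 33.6 ± 2.57 in lenvatinib libraries and 27.6 ± 1.86 in DMSO libraries (limma adjusted p = 0.0229). It was not called in 5 of 16 alternative analyses, among them without lenvatinib replicate 2 (0.0748), lenvatinib replicate 3 (0.073) or DMSO replicate 2 (0.0726). In gluconeogenesis 1 of 4 was called, G6pc3, a widely expressed glucose 6-phosphatase, which averaged 16.3 ± 0.511 in lenvatinib libraries and 13.1 ± 0.449 in DMSO libraries (limma adjusted p = 0.00806). In glycogen metabolism 2 of 13 were called higher. Pygl, the liver-type glycogen phosphorylase, averaged 1.44 ± 0.331 in lenvatinib libraries and 0.371 ± 0.0577 in DMSO libraries (limma adjusted p = 0.0039), and like Slc16a3 it was tested only through its lenvatinib libraries. Pgm2l1, a glucose 1,6-bisphosphate synthase, was called near the threshold (limma adjusted p = 0.0436), and lost the call in 10 of 15 alternative analyses. Among them were leaving out lenvatinib replicate 1 (0.0739), lenvatinib replicate 2 (0.122), DMSO replicate 1 (0.103), DMSO replicate 2 (0.102) or DMSO replicate 3 (0.0893). In the hexosamine and hexose branches 2 of 14 were called higher. Pmm1, a phosphomannomutase (limma adjusted p = 0.0358), lost its call in 6 of 16 alternative analyses. Among them were leaving out lenvatinib replicate 1 (0.117), lenvatinib replicate 2 (0.119), DMSO replicate 1 (0.0727) or DMSO replicate 3 (0.114). Galk1, galactokinase (limma adjusted p = 0.0362), lost its call in 8 of 16 alternative analyses, among them limma-voom (adjusted p = 0.101). It also lost the call without lenvatinib replicate 2 (0.118), lenvatinib replicate 3 (0.0682), DMSO replicate 1 (0.108) or DMSO replicate 2 (0.0728). Ribose phosphate synthesis had 0 called genes of 7 tested and the other glycolytic isoenzymes 0 of 3, among them Bpgm, the maker of 2,3-bisphosphoglycerate, which averaged 5.18 ± 0.117 in lenvatinib libraries and 6.66 ± 1.09 in DMSO libraries (limma adjusted p = 0.0764).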

How the data were processed

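Libraries came from TRIzol-extracted total RNA and a VAHTS Universal V10 kit, per the labels' protocols. HTSeq counts on build GRCm39 are named in the submitters' processing notes; the sources used here give no aligner, annotation or strand setting. What the authors deposited is FPKM, 1 column per library, matched to samples through the column names in the labels.

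Here FPKM was divided by median-of-ratios factors over 9163 genes that reached 1 in all libraries, and tested two-sided with limma 3.58.1 in R 4.3.3, treatment being the only term, with trend and robust moderation. The procedure was tested on simulated data. Whole reads, recovered from the FPKM steps for 19715 of 19715 genes above 0 (tolerance 1e-05), gave depths and limma-voom input.

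All members are named, with values per library for called members of a log2 change of at least 0.5 and the called member that fell. Other pathway lists name up to 2 called genes per direction with separate groups. Slc2a8 and the uncalled genes Mpc1, Mpc2 and Bpgm were named besides these. Members and lists were chosen with earlier results of these data known. Sums, shares, markers and promoter motifs carry no test. A B cell marker was left out of its list and is not reported here. Alternatives were pseudocounts of 0.1 and 0.5, no filter, a mean filter of 5, other scalings, a replicate block, plain moderation, limma-voom and leaving out each library.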

Additional observations from a re-analysis of the deposited data

How the results depend on the processing

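Of 16 alternatives, in each that gave a value for the gene, 11 of the 15 called members kept call and direction: Slc2a1, Slc16a1, Slc16a3, Pfkl, Tpi1, Pgk1, Pgam1, Eno1, Pkm, Ldha and Pgd. Slc16a3 gave a value in 12 and Aldoc in 15 of them. Slc16a3 had no value with the mean filter of 5 or on leaving out any lenvatinib library. Its kept call is therefore not support for a direction. Pfkp, Aldoc, Gapdh and G6pdx lost the call at least once, and 0 of the 15 changed direction. Leaving out a library gave 10 to 13 members called higher, 5 to 8 other pathway genes called higher and 673 to 827 genes called higher in all. Other pathway genes called higher numbered 6 without a filter, when 719 higher and 545 lower genes were called in all, and 5 with plain moderation, when 745 higher and 647 lower were called. With limma-voom 2 members were called lower, Pfkfb3 being added, among 1265 higher and 1222 lower genes. The median log2 change of the tested members was 0.23 with the mean filter of 5.

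The balance of all calls moved with the scaling. Scaling by summed FPKM gave 859 higher and 978 lower genes, quantile normalization 916 higher and 933 lower, and unscaled FPKM 1181 higher and 721 lower; members called higher and lower were then 13 and 1, 14 and 1, and 14 and 1. Reversals were in members without a call. Slc2a3 had a log2 change of −0.00101 with scaling by summed FPKM, and −0.0274 to 0.0629 on leaving out a library. Aldoa had −0.000880 with quantile normalization, and −0.00657 to 0.102 on leaving out a library. Taldo1 had 0.0160 with unscaled FPKM, and −0.0371 to 0.0286 on leaving out a library, and Tigar had −0.174 to 0.0566. The causes were not tested.

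Libraries of the same number did not deviate together across the tested genes (correlations of −0.007, 0.006 and −0.005). A shared factor that acted on few genes would not show in these correlations, so they cannot tell whether the libraries were paired. The replicate block gave 894 higher and 648 lower genes, and 13 and 1 members, with G6pdx losing its call (adjusted p = 0.0794). Hk3, Pfkm, Eno2 and Ldhb, under the filter on low values, were not tested.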
